A study of Arabidopsis thaliana with 6 samples.

Results

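The genes described here are those carried by the chloroplast genome of Arabidopsis thaliana. They were chosen as every probe set (the short probes on the array that together give a single intensity) that names 1 gene with a chloroplast locus tag. The rule found 69 genes with 1 probe set each, out of 13356 genes named by a probe set of their own on arrays of 22746 probe sets. Not among them are ndhB, rpl2, rpl23, rps7, rps12, ycf1 and ycf2, which lie in or reach into the inverted repeat and share probe sets between copies.

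All plants were of ecotype Col-0 and carried a 35S-driven transgene for a tagged RPL18B, a protein of the cytosolic ribosome, so the controls carry it too. They grew in soil with 16 h of light. Control plants had no treatment. PBZ plants received 10 mL of paclobutrazol at 50 mg/L on day 14, or 0.5 mg per pot, an inhibitor of gibberellin synthesis. For the GA group, GA3, which is a gibberellin, was applied every other day as a spray (50 µM, 1 mL per plant). Whole rosettes were taken at day 27 by the titles, or day 25 by another label. Each of the 3 groups had 2 arrays from biological replicates, with no statement of how many plants went into each. The molecule label gives total RNA, while the protocol describes total RNA and RNA pulled down with tagged ribosomes from the same lysate, and these cannot be told apart beyond that label.

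The plastid genome keeps genes for core subunits of the photosynthetic complexes, for part of the plastid ribosome and for the core of a bacterial-type RNA polymerase. Most other plastid proteins are encoded in the nucleus. Many plastid genes are transcribed together as units, mostly by the plastid's own polymerase, and some by a phage-type polymerase imported from the nucleus. Plastid messengers mostly lack a stable poly(A) tail. In plastids it is the addition of such a tail that marks an RNA for decay. In whole tissue, fewer plastids or chloroplast-rich cells and less RNA per plastid cannot be told apart.

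The arrays were alike, with median intensities from 32.4 to 33.9, and Pearson correlations across probe sets of 0.981 to 0.988 within groups and 0.967 to 0.986 between groups. Of the tissue markers, 1 leaf gene and 1 root gene had a probe set of their own. RCA, which activates Rubisco, had means of 4300, 4216 and 4208 in control, PBZ and GA rosettes, while the group means of the root hair expansin EXPA7 were 3.70 in control and 9.05 in PBZ, with GA between them. Flower and seed markers were not analysed here.

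The intensities of the plastid-encoded genes spanned a mean over 6 arrays from 1.62 for ndhH to 1510 for atpE. Probe sets differ in how strongly they bind, and labelling started from an oligo(dT) primer, so plastid signals reflect RNA that primer reached. This range therefore does not order the transcripts. Of the 69 genes, 12 stayed above 100 in every array, namely psaB, psbM, psbK, psbI, psbF, petB, atpE, atpB, ndhC, ndhI, rpl32 and ccsA. Another 6 stayed under 10 in every array (psaC, psbN, atpI, ndhF, ndhH and rpoB), where 18.6% of all probe sets did. A mean over 30 was reached by 34 of the 69.

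The PBZ arrays deviated most for these genes, in opposite directions. The median deviation from a gene's mean over 6 arrays was 0.32 in PBZ replicate 1 and -0.29 in PBZ replicate 2, on the scale of log2(intensity + 10). A low value was not particular to PBZ, since GA replicate 1 was at -0.21. The median log2(intensity + 10) of the 69 genes was lowest in GA replicate 1, at 5.00, with 5.14 in PBZ replicate 2. PBZ replicate 2 was below PBZ replicate 1 in 57 of the 69 genes, against 48.4% of all probe sets. The median difference, replicate 2 minus replicate 1 on the scale of log2(intensity + 10), was -0.61 over the 69 genes, or 1.52-fold, and 0.01 over all probe sets. In 39 of the 69 the second array was lower by more than 0.5, as in 7.2% of all probe sets. Among genes with a mean over 30, 33 of 34 were lower in PBZ replicate 2, against 51.5% of all probe sets that bright, and clpP was the exception. The lowest of all 6 values lay in PBZ replicate 2 for 27 of the 69 genes (17.6% of all probe sets) and the highest in PBZ replicate 1 for 34 (20.5%).

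The GA arrays also differed, by less. GA replicate 2 was above GA replicate 1 in 53 of the 69 genes, with a median difference of 0.27, where 49.2% of all probe sets were above. The lowest of the 6 values lay in GA replicate 1 for 22 genes (19.3% of all probe sets). The control arrays differed least, with replicate 2 above replicate 1 in 42 genes (49.2% of all probe sets) and a median difference of 0.05. Fitted log2 fold changes had a standard error (SE) with a median of 0.26 over the 69 genes and 0.16 over all probe sets.

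**Figure D1:**
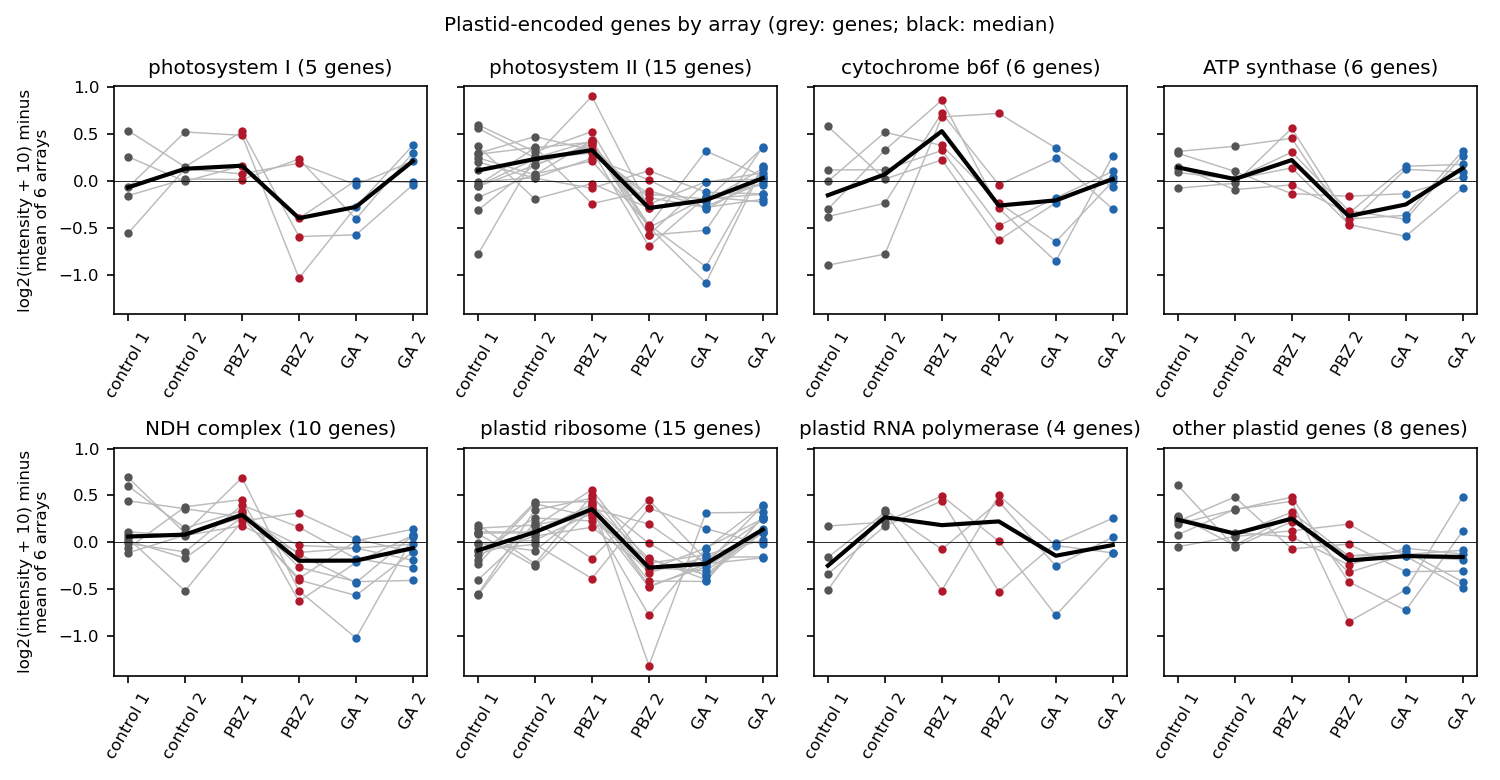
Each panel shows the genes of 1 complex. The y axis gives log2(intensity + 10) minus the gene's own mean over the 6 arrays named on the x axis, with a grey line per gene and the median in black. In 7 of the 8 panels the median falls from PBZ replicate 1 to PBZ replicate 2, the polymerase panel being the exception.

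**Figure D2:**
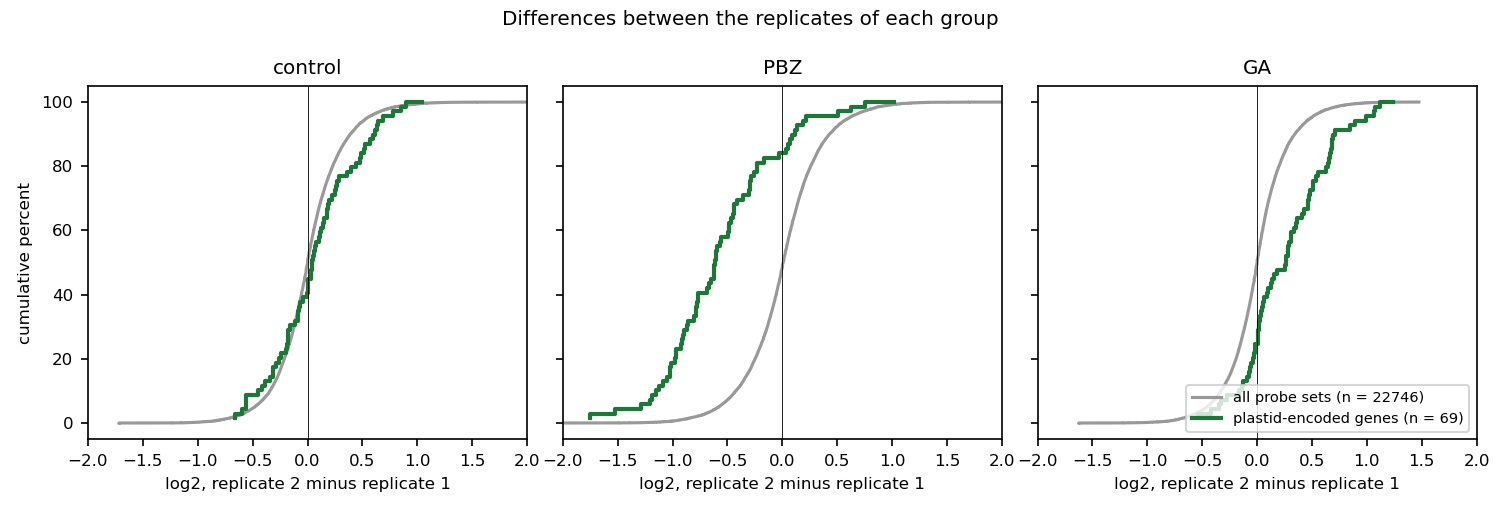
Cumulative percent of features (y axis) by the log2 difference of replicate 2 minus replicate 1 (x axis) in each group, in green for the 69 plastid-encoded genes and in grey for all 22746 probe sets. In PBZ the green curve lies to the left of the grey one, with medians of -0.61 and 0.01, and in GA to the right, with a median of 0.27 for the plastid genes.

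The replicate difference ran through genes for different complexes. Its median in PBZ was -0.78 over the 6 cytochrome b6f genes, -0.69 over the 15 of photosystem II, -0.62 over the 15 ribosomal protein genes, -0.61 over the 6 of ATP synthase, -0.56 over the 5 of photosystem I and -0.52 over the 10 of the NDH complex, which cycles electrons around photosystem I. Over the 4 RNA polymerase genes it was 0.01. The ribosomal protein gene rpl32 differed most, with 456.3 in PBZ replicate 1 and 128.9 in replicate 2, while its control arrays had 294.2 and 454.8 and its GA arrays 419.4 and 421.5. The photosystem I gene psaJ followed, with 273.6 and 88.7 in PBZ, 182.9 and 280.7 in control and 157.1 and 253.4 in GA. For both genes the lowest array was a PBZ array and the other PBZ array was near or above the controls.

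Of 13 listed transcription units, 7 had all measured members lower in PBZ replicate 2 and 6 were split, which was not compared with the share of all plastid genes by a test. All 5 of petL, petG, psaJ, rpl33 and rps18 were lower in PBZ replicate 2 by more than 0.5, with a median of -0.78. All 7 measured members of the ribosomal protein cluster that ends in rpoA were lower (median -0.77), as were all 5 from rps2 to atpA (median -0.62). Among the split units, psbD was higher by 0.19 while psbC and psbZ of the same unit were lower (-0.89 and -1.01). Likewise psaA was at 0.22 and psaB at -0.56, both for the photosystem I reaction centre, and clpP at 0.05 and rpl20 at -0.77. Of accD, rpoB, rpoC1 and rpoC2, known to be read by the imported polymerase, 1 of 4 was lower in PBZ replicate 2. Their median difference was 0.29, yet all 4 are dim, with means from 5.02 to 17.5. Dim genes outside this list were higher in PBZ replicate 2 too, such as rps15 (0.75) and rps16 (0.63). Over all plastid-encoded genes 12 were higher and 57 lower, and of the 12 only clpP had a mean over 30.

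Over the 21 measured nuclear genes listed for the photosynthetic complexes, the plastid ribosome and plastid RNA maturation, 10 were lower in PBZ replicate 2 and the median difference was 0.05. The RNA maturation genes, which process plastid transcripts, held 7 of these, out of 10 measured (median -0.14), with OTP81 at -0.997 and CRR21 at -0.59. Over 16 mitochondrion-encoded genes, 7 were lower and the median was 0.03, although 10 of the 16 had a mean under 10. The 8 probe sets that read plastid genes present in both inverted repeat copies had a median of -0.44, with 6 of 8 lower. The part that extraction, labelling or the plants had in the difference between the PBZ arrays was not tested.

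Across the 69 genes, those further below in PBZ replicate 2 tended to be further above in GA replicate 2 (Pearson r = -0.40, Spearman rho = -0.45, n = 69 genes). Over all 22746 probe sets the same values were -0.000766 and -0.0016. Among the 34 brighter genes r was -0.39 (rho -0.44). The control difference against the PBZ difference gave r = -0.34 (rho -0.32) for these 34, but -0.02 (rho -0.11) over all 69. These points share arrays and transcription units, so they are a description. The photosystem II reaction centre gene psbA shows the pattern with 117.3 and 52.8 in PBZ, 31.6 and 88.1 in GA, and 123.9 and 99.6 in control.

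**Figure D3:**
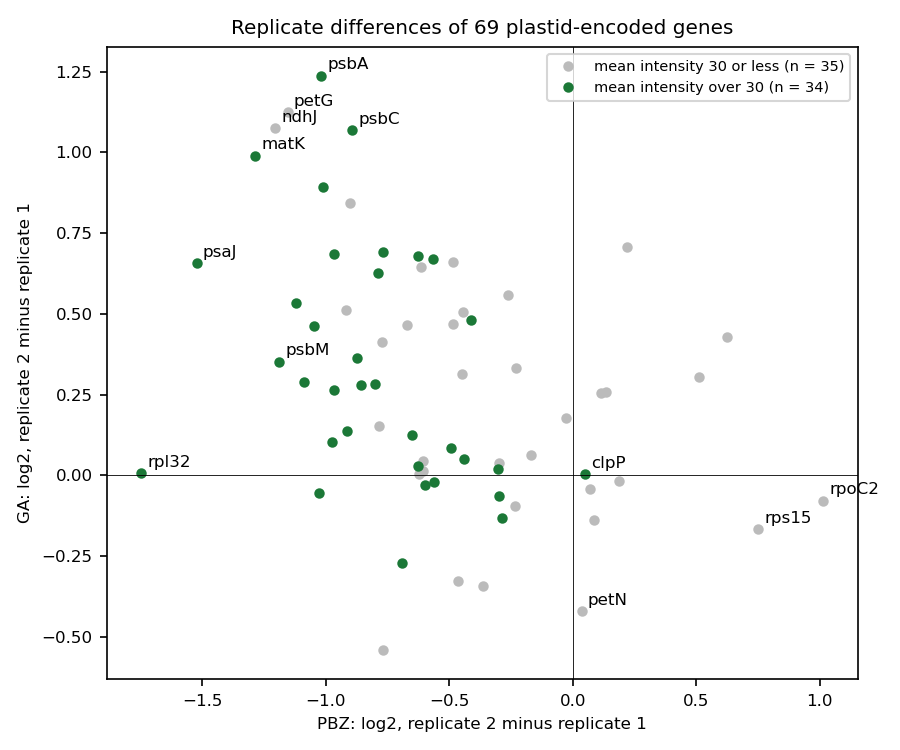
Each point is 1 of the 69 plastid-encoded genes, with the PBZ difference between replicates on the x axis and the GA difference on the y axis, both as log2(intensity + 10) of replicate 2 minus replicate 1. Most points lie at the upper left, psbA, psbC, matK, ndhJ and petG furthest up, while petN and clpP lie near 0 on the x axis.

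The first comparison set rosettes with gibberellin synthesis inhibited by PBZ against untreated ones. Of the 69 genes 1 passed (limma moderated test, Benjamini-Hochberg adjusted p under 0.05 over all 22746 probe sets), where 0.514% of all probe sets did. At an unadjusted p under 0.05 there were 6, 3 in each direction, against 13.7% of all probe sets, so the plastid genes did not stand above the background. The median log2 fold change was -0.10 over the 69 genes and 0.03 over all probe sets, with 45 of 69 below 0 (45.7% of all probe sets). Without PBZ replicate 1 the median became -0.37, with 54 genes below 0, and without PBZ replicate 2 it became 0.21, with 15 below 0. The direction of the plastid genes under PBZ therefore depends on which PBZ array is left out.

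The gene that passed was petN, for a small subunit of the cytochrome b6f complex that carries electrons between the photosystems. Its intensities were 3.0 and 4.1 in control, 28.9 and 29.9 in PBZ, and 20.9 and 13.1 in GA rosettes. The groups do not overlap, and the PBZ arrays lie only 0.04 apart on the log2 scale. It rose in PBZ, with a log2 fold change of 1.54 (SE 0.17, limma adjusted p = 0.0349). Against control the GA value was 0.98 on the same scale and did not pass (SE 0.17, limma adjusted p = 0.182). Its control mean of 3.55 lies under the pseudocount of 10, which therefore sets the size. The call ended with a pseudocount of 1, a floor of 10, the replicate number as a block, a fit of these groups alone and without any 1 array, where the adjusted p ran from 0.0669 to 0.276.

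In the gene order of RefSeq TAIR10.1 petN lies between rpoB and psbM. The photosystem II gene psbM had 620.1 and 1291.8 in control, 2016.4 and 878.9 in PBZ, and 920.9 and 1178.8 in GA, with groups that overlap (PBZ against control 0.57 on the log2 scale, SE 0.48, limma adjusted p = 0.665). The polymerase gene rpoB stayed under 10 throughout, from 0.3 to 9.8 (PBZ against control 0.26 on the log2 scale, SE 0.32). Neither neighbour passed, and their difference from petN was not tested. Of the other b6f genes, petB, petA and petL had log2 fold changes of -0.19, -0.50 and -0.18 and petG and petD of 0.27 and 0.65 in PBZ, and 0 of these 5 passed.

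Both PBZ arrays lay above both control arrays in 6 genes (petN, petD, ndhD, ndhF, rpl14 and accD), against 23.2% of all probe sets, and below them in 5 (psbT, atpI, ndhE, ccsA and clpP), against 18.5%. The photosystem II gene psbT had 22.1 and 23.8 in control and 12.3 and 14.5 in PBZ (log2 fold change -0.49, SE 0.14, limma adjusted p = 0.225). The NDH gene ndhF had 5.5 and 0.5 in control and 7.6 and 8.7 in PBZ, and the ATP synthase gene atpI 4.3 and 2.5 in control and 0.6 and 0.4 in PBZ, all under the pseudocount. Their log2 fold changes were 0.51 and -0.35 (limma adjusted p = 0.352 and 0.342). Shares this near to or under the background are no result about these genes as a group.

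**Figure D4:**
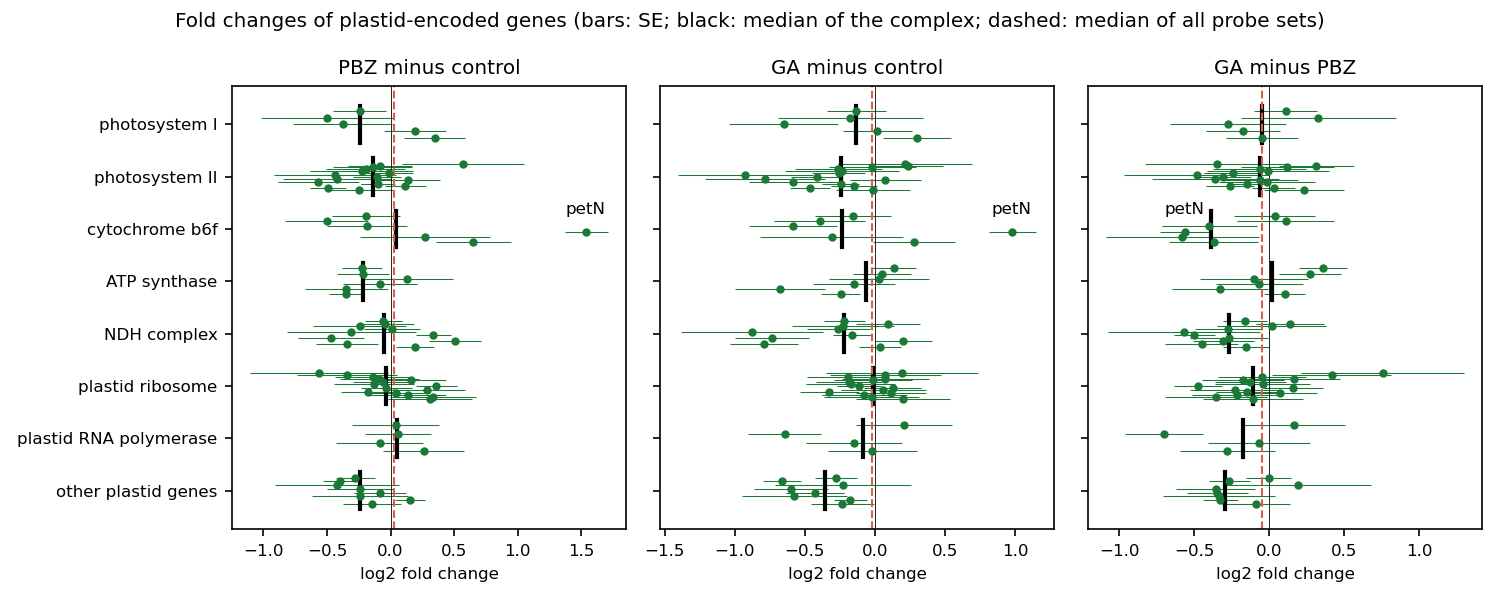
Log2 fold changes (x axis) of the plastid-encoded genes by complex (y axis) in each comparison, with SE as bars, the median of each complex as a black line and the median of all probe sets as a dashed line. In PBZ and GA against control petN lies apart from the other genes, at 1.54 and 0.98.

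The second comparison set rosettes sprayed with gibberellin against untreated ones. None of the 69 genes passed, as for 0% of all probe sets (limma, Benjamini-Hochberg). At an unadjusted p under 0.05 there were 6 (petN, psbT, clpP, ndhG, ndhE and rpoC1), where 8.49% of all probe sets had one. The median log2 fold change was -0.17 over the 69 genes and -0.02 over all probe sets, with 48 of 69 below 0 (54.8% of all probe sets). Without GA replicate 1 the median was 0.00821, and without GA replicate 2 it was -0.29, so this shift too depends on the array left out.

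Both GA arrays lay below both control arrays in 27 of the 69 genes, against 22.2% of all probe sets, and above in 3 (petN, atpE and atpB), against 16.8%. Among genes with a mean over 30, 11 of 34 were lower in both, against 24.5%. The 27 were uneven over the functions. They held 7 of the 8 genes outside the large complexes, 7 of 15 of photosystem II, 6 of 10 of the NDH complex and 2 of 15 of the ribosome, with 2 of 6 of ATP synthase and 1 each of photosystem I, b6f and the polymerase. These counts were not compared by a test.

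Among them was clpP, for a subunit of the plastid Clp protease that degrades stromal proteins. It had 119.9 and 145.5 in control, 96.0 and 99.8 in PBZ, and 79.6 and 79.9 in GA. The 3 groups do not overlap, with control highest and GA lowest. The log2 fold change was -0.66 in GA and -0.40 in PBZ against control (SE 0.14 each), and neither passed (limma adjusted p = 0.233 and 0.286; from 0.0602 to 0.727 and from 0.166 to 0.556 over the alternatives). The NDH genes ndhG, with 11.7 and 5.9 in control and 0.7 and 0.8 in GA, and ndhE, with 21.8 and 20.0 in control and 5.8 and 11.8 in GA, differed from control by -0.79 and -0.73 on the log2 scale (limma adjusted p = 0.427 and 0.506).

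The gene rbcL, for the large subunit of Rubisco, had 31.0 and 26.3 in control, 32.8 and 21.0 in PBZ, and 22.1 and 15.6 in GA. Its GA arrays lie below the controls and overlap with PBZ (log2 fold change against control -0.43, SE 0.20, limma adjusted p = 0.654). The genes psaI, ycf4 and cemA, for a photosystem I subunit, a photosystem I assembly factor and an envelope protein, were lower in both GA arrays as well. With petA, the next gene of the same unit, which overlaps, their median log2 fold change was -0.59. The unit of ndhC, ndhK and ndhJ was lower in both GA arrays in all 3 genes, with a median of -0.26. For ndhK and ndhJ, GA replicate 2 lay only just below the lower control array (25.2 against 25.3, and 19.7 against 20.6). In the ribosomal protein cluster that ends in rpoA the count was 0 of 7 and the median 0.07.

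In the ATP synthase genes atpB and atpE, for the beta and epsilon subunits, both GA arrays were above both control arrays, by small margins. Values of atpE were 1665.0 and 1403.2 in control, 1453.0 and 1176.5 in PBZ, and 1669.4 and 1692.3 in GA, so both GA arrays lie above both controls, the nearer of them by very little. The log2 fold change of atpE in GA against control was 0.14 (SE 0.16, limma adjusted p = 0.899), less than 1 SE. For atpB the values were 1036.2 and 985.5 in control and 1060.5 and 1038.7 in GA. Its log2 fold change was 0.05 (SE 0.21, limma adjusted p = 0.989), also less than 1 SE.

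The third comparison was between the plants given gibberellin and those given the inhibitor. Of the 69 genes 0 passed, where 2.97% of all probe sets did (limma, Benjamini-Hochberg), and 5 had an unadjusted p under 0.05, all lower in GA (18% of all probe sets). The median log2 fold change was -0.15 against -0.05 over all probe sets, with 49 of 69 below 0 (57.8% of all probe sets). Without PBZ replicate 1 it turned to 0.12, and without PBZ replicate 2 it was -0.43. Both GA arrays lay below both PBZ arrays in 11 genes (28.3% of all probe sets) and above in 1, atpE (19.1%).

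Among the 5 genes, accD, for a subunit of the plastid acetyl-CoA carboxylase that starts fatty acid synthesis, had 11.7 and 12.8 in PBZ, 8.0 and 7.5 in GA, and 9.3 and 10.8 in control. Its groups do not overlap, with PBZ highest and GA lowest (log2 fold change GA against PBZ -0.33, SE 0.12, limma adjusted p = 0.233). The NDH gene ndhD had the same order, with 27.4 and 21.8 in PBZ, 18.2 and 16.5 in control, and 15.2 and 13.6 in GA (GA against PBZ -0.50 on the log2 scale, SE 0.14, limma adjusted p = 0.131). The ribosomal protein gene rpl14 had 30.2 and 25.8 in PBZ and 16.7 and 17.9 in GA (GA against PBZ -0.48 on the log2 scale, SE 0.16, limma adjusted p = 0.198). For petN the log2 fold change was -0.56 (SE 0.17, limma adjusted p = 0.161). The repeat gene ycf2, outside the rule, had 14.3 and 15.0 in PBZ, 8.6 and 6.8 in control, and 6.3 and 4.3 in GA, and did not pass either (log2 fold change GA against PBZ -0.69, limma adjusted p = 0.0558).

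The brightest gene by the mean over 6 arrays was atpE in ATP synthase, psbM in photosystem II, rpl32 among ribosomal protein genes and rpoA in the polymerase. In photosystem I it was psaB, a reaction centre gene, with 327.0 and 270.6 in control, 305.2 and 203.8 in PBZ, and 272.4 and 268.4 in GA. In the b6f complex petB, for cytochrome b6, had 163.7 and 164.0 in control, 190.6 and 105.1 in PBZ, and 131.3 and 162.0 in GA. In the NDH complex ndhC had 1061.0 and 1032.3 in control, 1111.2 and 910.6 in PBZ, and 940.5 and 858.3 in GA. Outside the complexes ccsA, which serves the attachment of heme to c-type cytochromes, had 252.0 and 224.0 in control, 216.7 and 174.3 in PBZ, and 198.5 and 189.7 in GA. The PBZ replicate 2 value is the lowest of the 6 for psaB, petB and ccsA, and for ndhC the lowest is in GA. None of the 4 passed against control (limma adjusted p from 0.493 to 0.948).

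The genes of the plastid RNA polymerase did not share a direction. The alpha subunit gene rpoA had 73.7 and 109.2 in control, 133.6 and 63.5 in PBZ, and 95.1 and 116.3 in GA, with overlapping groups. For rpoC1 the values were 20.0 and 20.9 in control, 27.5 and 16.8 in PBZ, and 5.5 and 14.5 in GA, lower in both GA arrays than in any other array (log2 fold change GA against PBZ -0.70, SE 0.26, limma adjusted p = 0.237). The values of rpoC2 ran from 3.7 to 17.7, with its lowest and highest array both in PBZ.

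**Figure D5:**
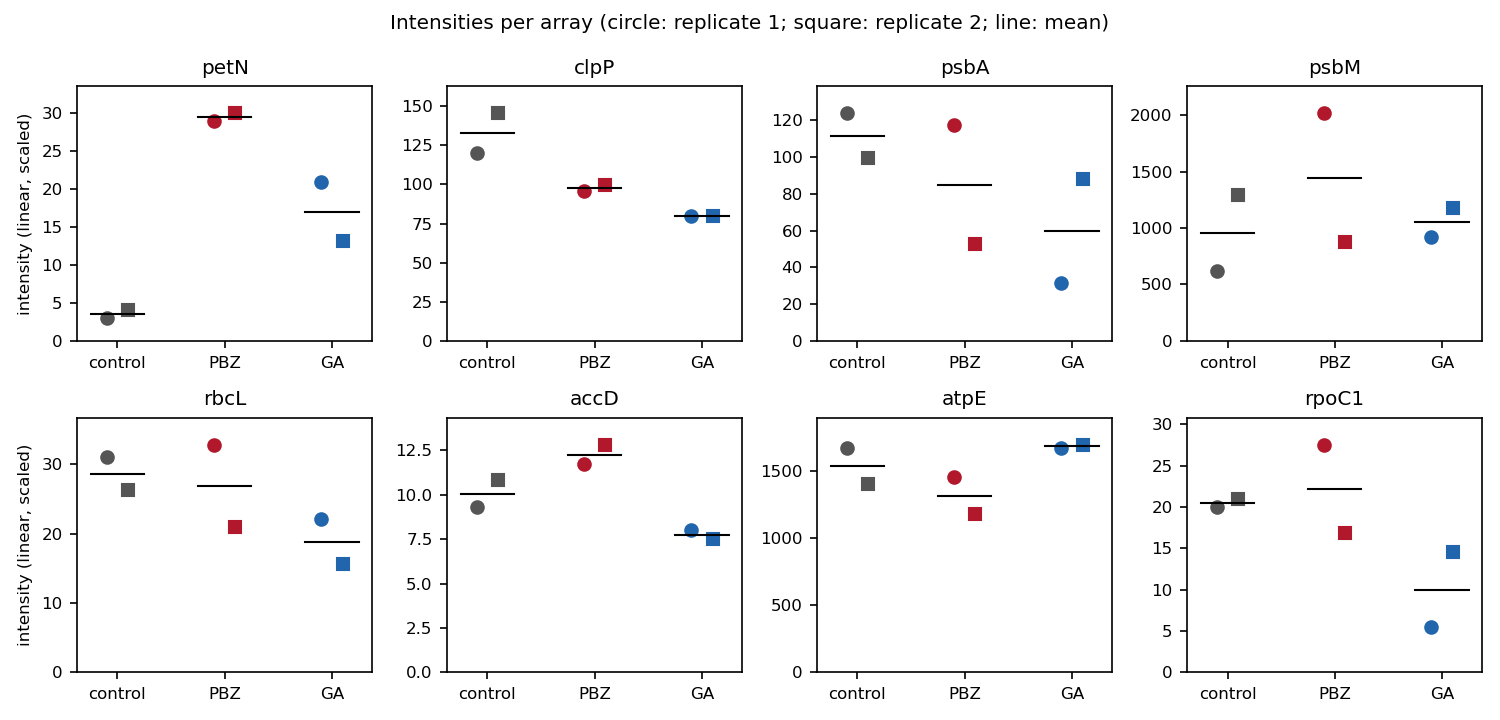
Linear intensity (y axis, from 0) of 8 plastid-encoded genes in the control, PBZ and GA groups (x axis), with replicate 1 as a circle, replicate 2 as a square and the mean as a line. The replicates of petN in PBZ and of clpP in PBZ and GA lie close together, while those of psbA and psbM lie far apart.

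The 21 measured nuclear genes were 11 listed for the complexes or the plastid ribosome and 10 listed for plastid RNA maturation. Of these, 0 passed in any of the 3 comparisons. Their median log2 fold changes were -0.04 in PBZ and -0.10 in GA against control, and 0.01 in GA against PBZ. Among them were PSAE-1 (AT4G28750) of photosystem I, with means of 4257, 3769 and 3869 in control, PBZ and GA, PSBY (AT1G67740) of photosystem II, with 3946, 3466 and 3593, and ATPC1 (AT4G04640), the gamma subunit of ATP synthase, with 3483, 3682 and 3348. AT1G77750 was the only measured gene of the plastid ribosome list. It was placed there by a match of gene names, and the organelle its protein serves was not checked. It had 231.2 and 245.8 in control, 260.9 and 276.5 in PBZ, and 188.9 and 197.2 in GA, without overlap. It did not pass (GA against PBZ -0.46 on the log2 scale, limma adjusted p = 0.119). Sigma factors, phage-type polymerases and the proteins attached to the plastid polymerase were not analysed here. Over the 16 mitochondrion-encoded genes 0 passed, with medians of -0.02, -0.02 and -0.00241 in the same order.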

How the data were processed

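Whole-rosette RNA of 6 samples was measured on 1 array each. The authors deposited linear intensities with 1 decimal, whose mean after trimming 2% at each end was 100.01 in every array. RMA and affy are named, without versions, in the submitters' processing notes, but RMA gives log2 values, so the sources used here do not settle how the table was made. Labelling used a kit that copies RNA from an oligo(dT) primer, so plastid signals reflect RNA that primer reached; how far this touches the values was not tested.

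The 64 control probe sets were left out. Probe sets were named through the platform annotation and RefSeq (TAIR10.1) by Entrez number; all 69 members matched, each by a probe set of the type meant for 1 target. Mitochondrial genes were matched by symbol, not by the locus tags first planned, since none of their Entrez numbers matched. log2(intensity + 10) was fitted with limma 3.58.1 in R 4.3.3, with a mean per group over 6 arrays, default eBayes and Benjamini-Hochberg adjustment over 22746 probe sets. The pipeline was tested on simulated data. The number of arrays limits precision, and p-values measure the spread between these samples only. Values per array are given for members that passed or had the 5 smallest p in a comparison, for some of them not in every group. They are also given for the brightest member of each complex and for psbA, rbcL, petN, clpP, accD, rpoA and rpoC1. For rpoB and rpoC2 the range over the arrays is given instead. Of nuclear lists, at most 2 genes with the smallest p in a comparison are named. OTP81 and CRR21 are named for their replicate difference in PBZ instead. Other genes, and the mean intensity of 30 that splits bright from dim members, were picked with values in view. The members and lists were chosen with earlier results of these data known. Same-numbered arrays did not deviate together over all probe sets (correlations of replicate differences of 0.0147, 0.0313 and -0.000766). Such values cannot show whether samples of the same number were grown or handled together. The main fit did not pair them, and the number as a block is among the alternatives.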

Additional observations from a re-analysis of the deposited data

How the results depend on the processing

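Over the alternatives (block, pseudocount, floor, scaling, dim filter, variance prior, probe set choice, samples in the fit and each array left out), the count of plastid-encoded genes that passed stayed at 0 in GA against control and in GA against PBZ. In PBZ against control it was 1, petN, and 0 with the replicate block, with a pseudocount of 1, with a floor of 10, in a fit of the 2 groups alone, and without the 40% dimmest probe sets, a filter that keeps 45 of the 69 genes and drops petN; it was also 0 without each of the 6 arrays. The replicate block changed no other call among the 69 genes. Over all probe sets it took the number that passed from 117 to 47 in PBZ against control. That number went from 0 to 1 in GA against control and from 675 to 391 in GA against PBZ. The log2 fold change of petN in PBZ ran from 0.79 to 2.75 over the alternatives (limma adjusted p from 0.0245 to 0.276).

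The median log2 fold change of the 69 genes ran, with 1 array left out, from -0.37 to 0.21 in PBZ against control, from -0.29 to 0.00821 in GA against control and from -0.43 to 0.12 in GA against PBZ. Under the other alternatives it moved by less than 0.20, the spread of the array medians between replicates. With a floor of 10, atpI and ndhF in PBZ against control had no difference left, since all their values lie under it; no other gene followed through the alternatives changed direction or call, petN in PBZ apart. Averaging all probe sets of a gene cannot move the members, which have 1 each. With 2 arrays a group, differences as large as that of petN in GA against control (0.98, SE 0.17) did not pass.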
